A study of Eublepharis macularius with 4 samples.

Results

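The cells described here came from soft tissue of the adult leopard gecko (Eublepharis macularius) jaw and were set apart by the summed UMIs (unique molecular identifiers, 1 for each captured RNA molecule) of 4 genes, LOC129335408, LOC129335450, LOC129325114 and LOC129343529. A cell was gated when it had at least 200 detected genes, 10 or more UMIs of these 4 genes together, fewer than 3 UMIs of MUC22, TGM4 and MALL together, and fewer than 5 UMIs of COL1A1, COL1A2, DCN and LUM together. Of 8531 cells with at least 200 genes, 78 (0.914%) met this rule. The members were thus chosen by measured UMIs of the 4 genes, and of the 7 genes that limit the gate, in these same cells, so the levels of these genes are a description and carry no test. The working name of the set was secretory epithelial cells. The set is not described as 1 type below. Within the same library, cells led by different gate genes mostly differed in the transcripts raised most over the other cells there. This is a description of few cells and of genes outside the rule. Leading gene and library went together for most cells and cannot be told apart. They are called gated cells here, or are named by their leading gene.

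There were 4 libraries from 2 animals, made with a 10x single cell 3′ kit from tissue that enclosed oral mucosa, dental lamina and dental mesenchyme. For animal LG252 the enzymes were collagenase D (1.5 U/ml) and dispase II (2.4 U/ml), used warm at 37 °C over 4 to 5 h. For animal LG255 a cold digestion at 4 °C lasted 6 h and used protease from Bacillus licheniformis (10 mg/ml). Both animals were adults with no allele or treatment given, and live cells of both were sorted by exclusion of propidium iodide. Both animals are represented by 2 libraries, replicates 1 and 2, and their titles carry the term biolrep for biological replicate. No label states whether the replicates of an animal were separate tissue samples or parts of 1 cell suspension. Part of the spread between these libraries, on which p-values draw, may thus be technical. Animal and digestion changed together and cannot be told apart. Total UMIs of the cells with at least 200 genes were 20742377 and 12858073 in replicates 1 and 2 of LG252, and 4509702 and 9805893 in those of LG255.

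Secretory epithelium of the oral cavity lines glands and lies among the surface cells of the mucosa. Mucous cells pack heavily glycosylated mucins into granules, serous cells release water, salts and small proteins, and duct cells adjust the fluid on its way out. Such cells move immunoglobulin into saliva through the polymeric immunoglobulin receptor (PIGR), and their large output of protein leans on folding enzymes of the endoplasmic reticulum such as AGR2. Most abundant products of these gecko cells carry only a locus number in the annotation, and no role is given here to those genes. Genes of this kind that lie close together can be similar copies, between which reads can be divided, so their separate counts are uncertain.

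The 4 genes of the gate lie on 3 chromosomes of the assembly MPM_Emac_v1.0. LOC129335450 lies on chromosome 9 at 1209134 to 1214276 and LOC129335408 on the same chromosome at 2457320 to 2468667. LOC129325114 lies on chromosome 2 at 143927716 to 143932501, and LOC129343529 on chromosome 15 at 45798336 to 45813139.

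Gated cells were uneven over the libraries. There were 16 in LG252 replicate 1, 1 in LG252 replicate 2, 16 in LG255 replicate 1 and 45 in LG255 replicate 2. As shares of the cells with at least 200 genes these are 0.368% (exact 95% Clopper-Pearson interval 0.211 to 0.597%), 0.0453% (0.00115 to 0.252%), 2.21% (1.27 to 3.57%) and 3.58% (2.63 to 4.76%), where the intervals cover counting error only. Both LG252 libraries lay below both LG255 libraries. The mean share was 0.207% ± 0.228 in LG252 and 2.90% ± 0.969 in LG255 (SD, n = 2 libraries each), a difference of -2.69 percentage points. The exact two-sided permutation test gave p = 0.333, the smallest that 2 libraries against 2 can give.

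By each gene alone, 50 gated cells held 10 or more UMIs of LOC129335408, of which 12 were in LG255 replicate 1 and 38 in LG255 replicate 2. LOC129335450 reached 10 UMIs in 38 cells, 9 in LG255 replicate 1 and 29 in LG255 replicate 2. LOC129325114 reached it in 10 cells, 9 in LG252 replicate 1 and 1 in LG255 replicate 2. LOC129343529 reached it in 15 cells, 7 and 1 in replicates 1 and 2 of LG252, and 4 and 3 in those of LG255. The LOC129335408 and LOC129335450 cells were thus found in LG255, all but 1 of the LOC129325114 cells in LG252 replicate 1, and LOC129343529 cells in every library.

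LOC129335408 and LOC129335450 went together: 35 cells held 10 or more UMIs of both, 15 of the first alone and 3 of the second alone. Of the 53 cells led by either of them, 50 held at least 1 UMI of both, and 1 held a UMI of another gate gene. These cells are called pair-led below. None of the 25 cells led by LOC129325114 or LOC129343529 held a UMI of the pair, and 4 cells held UMIs of both LOC129325114 and LOC129343529. LOC129335408 led in 44 cells, LOC129335450 in 9, LOC129325114 in 10 and LOC129343529 in 15, with no ties.

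**Figure D1:**
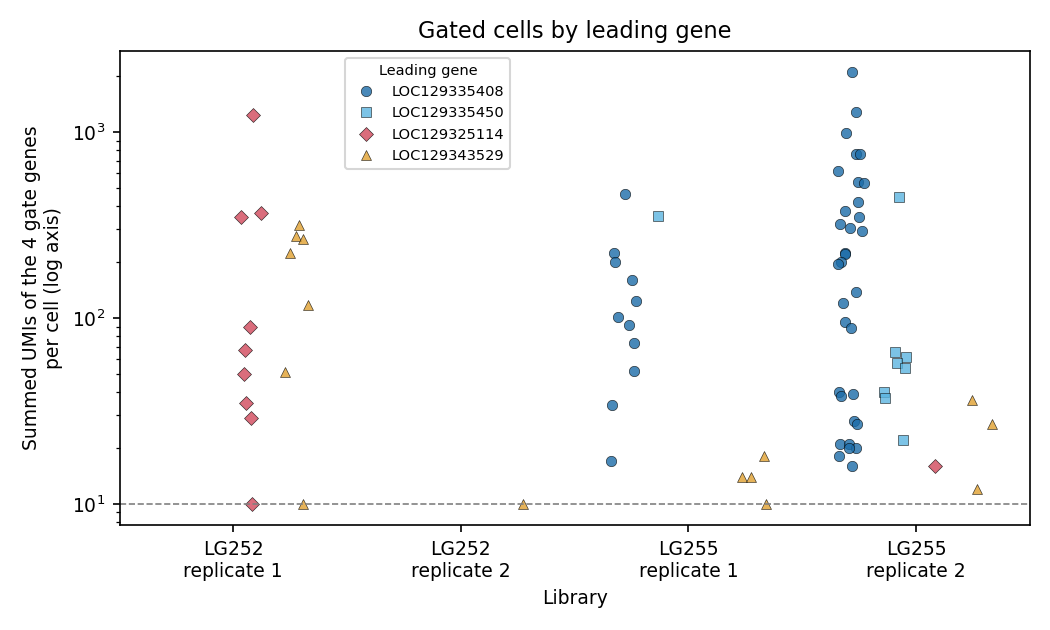
Each point is 1 gated cell; the vertical axis (log scale) gives the summed UMIs of the 4 gate genes, columns are libraries, and colour and shape give the leading gene. LG252 replicate 1 holds cells led by LOC129325114 and LOC129343529, pair-led cells stand in the LG255 columns, and the 7 LG255 cells led by LOC129343529 lie between 10 and 36 UMIs, near the dashed line at 10.

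The summed level of the gate genes spanned a wide range, from 10 to 2102 UMIs per cell with a median of 89. LOC129335408 summed to 1260 and 8413 UMIs over the gated cells of replicates 1 and 2 of LG255, which is 162 and 223 per 10000 UMIs, and reached 1191 UMIs in 1 cell. LOC129335450 summed to 639 and 3591 UMIs, or 82.3 and 95.02 per 10000. In LG252 replicate 1, LOC129325114 summed to 2224 UMIs (288 per 10000), of which 1240 were in 1 cell, and LOC129343529 to 1273 (165 per 10000). LOC129343529 was far lower elsewhere, with 10 UMIs in LG252 replicate 2 and with 56 and 78 UMIs in replicates 1 and 2 of LG255.

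Few cells lay near the threshold. Just inside it, 4 gated cells held 10 or 11 UMIs, and just outside it, 6 cells held 8 or 9. Across all libraries 190 cells that met the other limits of the gate held 1 UMI of the 4 genes, 37 held 2 to 4 and 15 held 5 to 9. Cells outside those limits are not in these counts, nor in that of cells with 8 or 9. Another 8 cells with 10 or more UMIs failed for MUC22, TGM4 and MALL, and 1 failed for the collagen genes.

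Low counts of the gate genes were also found in cells that should lack them. Among cells with 5 or more UMIs of COL1A1, COL1A2, DCN and LUM, LOC129335408 had a UMI in 3.36% of 119 cells of LG255 replicate 2 (median 3570 UMIs per cell), where 1 cell held 11 UMIs, and in none of 30 cells of LG255 replicate 1, which allows a share of up to 10.0%. In the gated cells the same share was 88.9% (40 of 45 cells) in LG255 replicate 2 and 12 of 16 cells in LG255 replicate 1. Among cells outside the gate with a UMI of PTPRC, the pan-leukocyte marker, LOC129325114 had a UMI in 1.32% of 2198 cells of LG252 replicate 1 and LOC129343529 in 0.910%. In LG255 replicate 1 LOC129325114 had a UMI in 3 of 20 such cells, but 0 UMIs in the 16 gated and 30 collagen cells. Whether these UMIs were free RNA or RNA of the cells themselves was not tested. The LG255 cells led by LOC129343529 lie nearest to the threshold. In LG255 this gene had 0 UMIs in the collagen cells (30 and 119 in replicates 1 and 2) and the PTPRC cells (20 and 23). Low counts of it lay in cells with 10 or more UMIs of LOC129339097 (4 of 464 and 8 of 895 cells). Cells with 3 or more UMIs of MUC22, TGM4 and MALL held it too (3 of 14 and 2 of 46). No cell of these 2 sets held more than 9 UMIs of it.

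Gated cells of all 4 libraries were shallower than the cells with 10 or more UMIs of LOC129339097 outside the gate (2602 cells), the set the rule names for comparison. Median UMIs per cell were 3769.5 and 2310 in gated cells of replicates 1 and 2 of LG252 and 4186.5 and 5790 in those of LG255. In LOC129339097 cells they were 12010, 8418.5, 7099.5 and 9083 in the same order. The median mitochondrial share was 4.05, 12.5, 6.77 and 3.28% in gated cells, against 1.12, 1.50, 4.81 and 3.78% in LOC129339097 cells, higher in 3 of the 4 libraries. Of the gated cells, 9 also held 10 or more UMIs of LOC129339097, all in LG255, 5 were among the highest doublet scores, and 1 shared its barcode with a cell of another library.

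The label was checked against markers of other cells. PTPRC had at most 2 UMIs in any gated cell and was detected in 4, all in LG252 replicate 1. Collagen genes are limited by the rule, and endothelial markers gave 0 or 1 UMI in each group of cells by leading gene and library. The single LG255 replicate 2 cell led by LOC129325114 stood apart. It held 50, 37 and 57 UMIs of C1QA, C1QB and C1QC, subunits of the complement protein that macrophages make, 76 UMIs of CD74, and 0 UMIs of the pan-epithelial list (epithelial keratins, adhesion and junction genes), against 16 UMIs of the gate genes. Counts below were also run without it.

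The pan-epithelial list was at different levels in the other groups. It summed to 92.0 and 104 UMIs per 10000 in LG255 cells led by LOC129343529 (replicates 1 and 2). It was 16.5 and 16.3 per 10000 in LG252 replicate 1 cells led by LOC129325114 and LOC129343529, and only 7.87 and 9.45 per 10000 in the pair-led cells of LG255 replicates 1 and 2. LOC129339097 cells had 22.5, 26.1, 25.5 and 23.9 per 10000 in the 4 libraries. Pair-led cells, the largest group, thus had the lowest epithelial keratin and adhesion counts of these groups as a share of all UMIs. In these cells 1 gene took a large part of the UMIs, which lowers the share of every other gene. With that gene left out of the totals, pair-led cells of LG255 replicate 2 would lie about level with the LG252 groups. Those of LG255 replicate 1 would still lie below them.

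That gene was LOC129342885, on chromosome 15 at 47614885 to 47661940. In pair-led cells it made up 3880 and 4373 of every 10000 UMIs in replicates 1 and 2 of LG255. Per cell its share ran from 0% over a median of 36.4% to 69.8% in LG255 replicate 1, and from 0% over a median of 6.82% to 80.3% in LG255 replicate 2. The cells fell at both ends: 29 of 53 had 10% or more of their UMIs from it and 19 had under 1%. In LG252 replicate 1 cells led by LOC129325114 it never passed 0.0392% of a cell's UMIs, while the single LG252 replicate 2 cell, led by LOC129343529, had 21.6%.

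**Figure D2:**
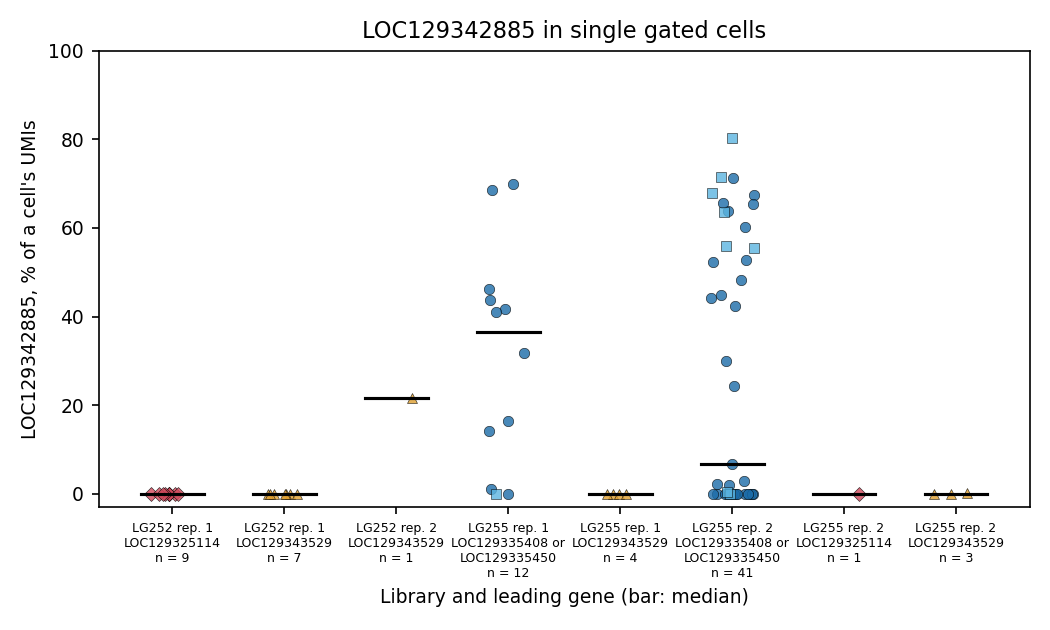
Each point is 1 gated cell, the vertical axis is the percent of its UMIs from LOC129342885, and columns are libraries split by leading gene, with a bar at the median. Among pair-led cells (circles led by LOC129335408, squares by LOC129335450) shares run up to 69.8% in LG255 replicate 1 and 80.3% in LG255 replicate 2, while the cells led by LOC129325114 lie near 0.

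Within the pair-led cells, those with 10% or more of LOC129342885 (9 and 20 cells in replicates 1 and 2 of LG255) were set beside the rest (3 and 21 cells). LOC129335408 was at 156 and 80.0 per 10000 UMIs in the first, against 658 and 603 per 10000 in the rest. LOC129331419, a long non-coding RNA on chromosome 5, was at 214 and 93.8 per 10000, against 584 and 658. KCNMA1, a calcium-activated potassium channel, was at 5.40 and 2.82 per 10000, against 18.1 and 9.15. These 3 genes were lower in the first in both libraries. As a share of all UMIs PIGR was at 21.0 and 16.3 per 10000, against 20.7 and 22.3, with no common direction. These levels are shares of all UMIs, which fall for every other gene when LOC129342885 takes more. In the first cells it took 21683 of 48190 and 152283 of 244338 UMIs. In the rest LOC129342885 took 18 of 7740 and 1375 of 107059 UMIs. PIGR gave 101 and 398 UMIs in the first cells and 16 and 239 in the rest. Relative to the UMIs of all genes but LOC129342885, PIGR was thus higher in the first cells in both libraries. This was not tested.

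Other transcripts of the pair-led cells were shared by both LG255 libraries at close levels. LOC129331419 was at 265 and 266 per 10000 UMIs in replicates 1 and 2, LOC129331768 at 158 and 179, LOC129343454 at 193 and 238, and LOC129343486 at 67.9 and 112. LOC129343486 and LOC129343454 lie on chromosome 15 at 47199102 to 47232651 and 49774318 to 49780488, on either side of LOC129342885. Among genes with known roles, PIGR was at 20.9 and 18.1 per 10000, CCL28, a chemokine of mucosal glands that attracts antibody-secreting cells, at 5.01 and 5.61, and SLC12A2, the basolateral chloride loader of fluid-secreting cells, at 5.01 and 5.04. The chloride channel ANO1 was at 3.40 and 2.59 per 10000 and the water channel AQP5 at 2.32 and 2.36. CFTR, the chloride channel of secretory and duct epithelium, was near the counting limit, with 5 and 11 UMIs.

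LG252 replicate 1 cells led by LOC129325114 (9 cells) carried another set. LOC129335395 was highest, with 2962 UMIs over 9 of 9 cells, or 595 per 10000. LOC129335409 was at 157 per 10000, LOC129335996 at 137, LOC129335407 at 74.5, the long non-coding RNA LOC129344465 at 101 and LOC129346334 at 86.6. LOC129335395, LOC129335996, LOC129335409 and LOC129335407 lie together on chromosome 9 between 2351416 and 2505336, around LOC129335408, which itself had 0 UMIs in these cells. PIGR was at 6.43 per 10000, AGR2 at 4.82 and its paralogue AGR3 at 2.81. Single cells added other genes: TUBA1A gave 78 UMIs in 3 cells, DNALI1 13 UMIs in 2 cells and CCNO 16 UMIs in 2 cells. These genes are in no list here and were picked after their values were seen. Of the list of 7 genes of ciliated cells, FOXJ1 gave 1 UMI, and none reached the minimum for testing in any comparison. No ciliated type is read from these counts.

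The neighbours of LOC129335408 on chromosome 9 were thus divided between groups of cells. Over all cells led by LOC129325114, LOC129335395 was at 502 per 10000 UMIs and LOC129335996 at 115. In the pair-led cells LOC129335395 was at 6.95 per 10000 and LOC129335996 at 0 UMIs. LOC129335409 was found in both, at 132 per 10000 in cells led by LOC129325114 and at 11.98 in pair-led cells.

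LG252 replicate 1 cells led by LOC129343529 (7 cells) were the richest in AGR2, the protein disulphide isomerase that mucin folding depends on in mouse intestine, with 557 UMIs over 7 of 7 cells (202 per 10000). Of these UMIs, 319 were in 1 cell among the highest doublet scores, and without it the level was 114 per 10000. The long non-coding RNA LOC129328854 was at 249 per 10000, LOC129331021 at 153 and LOC129342665 at 69.0. LOC129331021 was shared with the LG252 replicate 1 cells led by LOC129325114, at 42.4 per 10000 in 8 of 9 cells. BPIFB2, of the family of secreted lipid-binding proteins of the upper airway and mouth, gave 78 UMIs in 3 cells (28.3 per 10000). SPDEF, a transcription factor of goblet cells in mouse, was low, with 10 UMIs in 4 cells. The single LG252 replicate 2 cell gave 98 UMIs of BPIFB2 beside its 499 UMIs of LOC129342885.

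LG255 cells led by LOC129343529 (4 and 3 cells in replicates 1 and 2) did not share these transcripts. The gate genes were 0.166 to 0.655% of their UMIs. In replicate 1 LOC129341652 was at 912 per 10000 UMIs in 4 of 4 cells, against 66.5 in the other cells of that library. The epithelial chemokine CXCL14 was at 82.3 and 133 per 10000 UMIs and was found in all 7 cells, the surface protein CD24 at 39.1 and 34.7, the simple-epithelial keratin KRT18 at 39.6 and 44.6, and the adhesion molecule EPCAM at 22.5 and 22.0. The ligand SHH gave 9 and 19 UMIs and was found in all 7 cells.

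**Figure D3:**
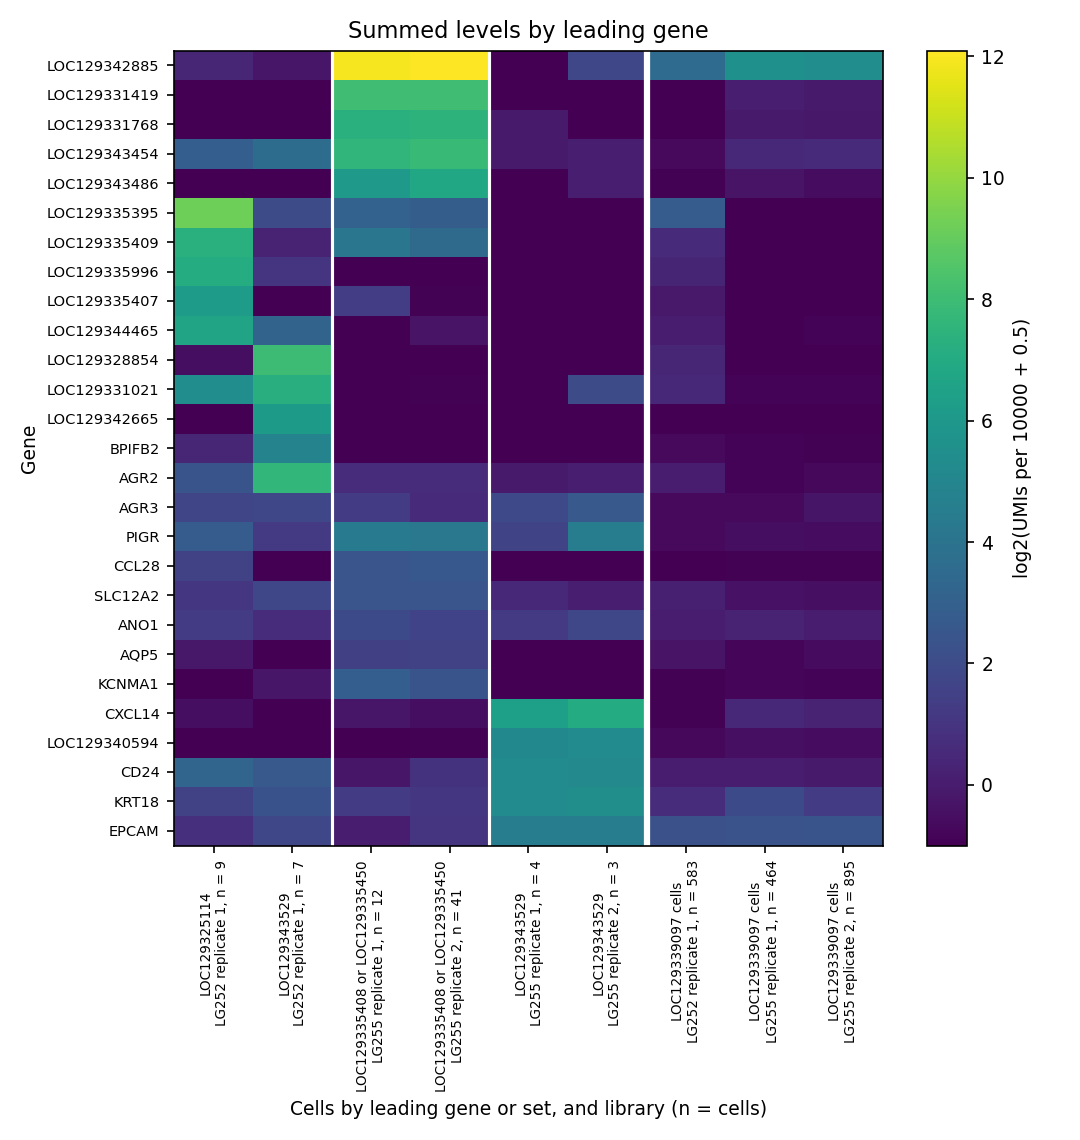
Rows are genes described in the text, columns are gated cells summed by leading gene and library and, at the right, the LOC129339097 cells of the same libraries; colour is log2(UMIs per 10000 + 0.5). Each block of gated cells has its own bright rows: LOC129335395 at 595 per 10000 in LG252 cells led by LOC129325114, AGR2 at 202 in LG252 cells led by LOC129343529, LOC129342885 at 3880 and 4373 in pair-led cells, and CXCL14 at 82.3 and 133 in LG255 cells led by LOC129343529.

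Lists of genes by role also differed between the groups. Mucous products summed to 16.1 and 210 per 10000 UMIs in LG252 replicate 1 cells led by LOC129325114 and LOC129343529, to 26.5 and 21.8 in pair-led cells of LG255 replicates 1 and 2, to 9.66 and 30.1 in LG255 cells led by LOC129343529, and to between 0.430 and 1.08 in LOC129339097 cells of the 4 libraries. Acinar and duct transport genes summed to 9.24 and 5.08 per 10000 in the LG252 groups and to 23.1 and 19.1 in pair-led cells, and to 11.5 and 11.6 in LG255 cells led by LOC129343529, against 2.85 to 5.22 in LOC129339097 cells. Each of these groups had more mucous product counts than the LOC129339097 cells. In LG255 replicate 2 cells led by LOC129343529, PIGR gave 40 UMIs, all of them in 1 of 3 cells. For transport genes the groups lay above the LOC129339097 cells, except the LG252 cells led by LOC129343529, at 5.08 within their range. Of the list of serous and salivary products only 1 gene is named in the annotation used, and it had 0 UMIs in gated cells. The 6 ionocyte genes in the files had 0 UMIs in gated cells as well.

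The gated cells were then set against the LOC129339097 cells over all genes. Counts were summed per library in LG252 replicate 1, LG255 replicate 1 and LG255 replicate 2, the libraries with at least 10 cells of both sets, and tested with edgeR's quasi-likelihood test with library as a block. The 12 genes of the rule stayed out of the calls. The test takes most of its estimate of spread from all genes together. A small p-value therefore does not show that a gene's libraries were alike. For AGR2 the log2 ratios were 7.11, 3.40 and 2.79 in these libraries, at an edgeR adjusted p of 2.22e-16. Of 9444 genes tested, 976 (10.3%) passed an adjusted p of 0.05, 317 (3.36%) higher and 659 (6.98%) lower in gated cells. DESeq2 called 419, 254 higher and 165 lower, so the split by direction depends on the method. The median log2 fold change of all genes was -0.40, and -0.24 when LOC129342885 was also left out of the library sizes. The gate genes were picked as markers of these same cells, so the calls are not independent of the rule, and they describe the mixture of groups above rather than 1 cell type.

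A gene was tested when it reached about 0.0518 per 10000 UMIs in 3 of the 6 sums. Of the 9444 genes, 4481 reached this minimum in all 3 sums of both sets, and of those 119 were called higher and 312 lower. Another 386 reached it in the gated sums alone, where 136 were called higher, and 3535 in the LOC129339097 sums alone, where 342 were called lower. A gene admitted by the set in which it is high had to differ, so the counts over lists below are descriptions, and the genes that reached the minimum in both sets are given apart.

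Mucous products were higher in gated cells: all 3 that reached the minimum in both sets, PIGR, AGR3 and the mucin MUC1, were called, as were the 3 admitted by the gated sums alone, AGR2, ERN2 and MUC15. Of the list of 25 genes, 11 are named in the files. PIGR was at 4.78, 15.8 and 17.9 per 10000 UMIs in gated cells of LG252 replicate 1, LG255 replicate 1 and LG255 replicate 2, against 0.139, 0.209 and 0.183 in LOC129339097 cells. The sets did not overlap, and the log2 fold change was 5.90 ± 0.54 (SE, edgeR adjusted p = 1.23e-24). AGR2 was at 75.1, 0.901 and 1.03 per 10000 in gated cells, against 0.495, 0.040 and 0.107 in LOC129339097 cells. It was higher in every library but by far most in LG252 replicate 1 (log2 fold change 4.96 ± 0.56, edgeR adjusted p = 2.22e-16). AGR3 (3.33 ± 0.45) and ERN2, the unfolded protein sensor of mucous epithelium (5.41 ± 0.73), were also higher in all 3 libraries, although ERN2 rests on 11, 4 and 8 UMIs in gated cells.

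CCL28 was tested through the gated sums alone, so its call is a description. It was higher by a log2 fold change of 7.41 ± 0.55 (edgeR adjusted p = 8.33e-37). It gave 12, 28 and 197 UMIs in gated cells, or 1.55, 3.60 and 5.21 per 10000, against 0.0078, 0.020 and 0.032 in LOC129339097 cells. The calls for PIGR, CCL28, AGR2, AGR3 and ERN2 stood without each library in turn and in DESeq2. With no library block, the call for AGR2 was lost (edgeR adjusted p = 0.0682).

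Of the acinar and duct transport genes, 4 of the 6 that reached the minimum in both sets were higher (SLC12A2, ATP1B1, AQP5 and ANO1) and none lower, and KCNMA1, admitted by the gated sums alone, was higher as well. KCNMA1 was at 0.129, 5.15 and 4.42 per 10000 in gated cells of LG252 replicate 1, LG255 replicate 1 and LG255 replicate 2, against 0.031, 0.072 and 0.037 in LOC129339097 cells. It was thus high in LG255 and rested on 1 UMI in LG252 replicate 1 (log2 fold change 5.73 ± 0.58, edgeR adjusted p = 2.49e-20). SLC12A2 was at 2.07, 3.86 and 4.71 per 10000, against 0.617, 0.290 and 0.222, with no overlap (3.28 ± 0.48, adjusted p = 1.24e-09). ATP1B1, a subunit of the sodium pump, was at 1.16, 3.35 and 2.49 per 10000, against 0.154, 0.149 and 0.107, again with no overlap (edgeR adjusted p = 2.06e-14). AQP5 passed as well (3.09 ± 0.52), but it was at 0.259 per 10000 in gated cells and 0.295 in LOC129339097 cells of LG252 replicate 1, and its adjusted p was 0.11 without LG255 replicate 1 and 0.13 without LG255 replicate 2.

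Of the secretory transcription factors that reached the minimum in both sets, 1 of 6, CREB3L1, was higher and none lower. The other 4 called, FOXA2, BHLHA15, CREB3L4 and TFCP2L1, were tested through 1 of the sets of cells, the first 3 through the gated sums. FOXA2, a forkhead factor of endoderm-derived glands, gave 1, 2 and 4 UMIs in gated cells of LG252 replicate 1, LG255 replicate 1 and LG255 replicate 2, against 1, 3 and 4 UMIs in the far larger LOC129339097 sets (edgeR adjusted p = 7.25e-05). BHLHA15, which drives the secretory machinery of acinar cells in mouse, gave 1, 3 and 12 UMIs (4.26 ± 0.79), and its call was lost without LG255 replicate 2 (adjusted p = 0.316). CREB3L1, a membrane-bound factor of secretory cells, was lost without either LG255 library (adjusted p 0.256 without replicate 1 and 0.473 without replicate 2). TFCP2L1, a factor of salivary and kidney ducts in mouse, was called with 0 UMIs in gated cells of LG252 replicate 1 and was lost without LG255 replicate 1 (0.597) or LG255 replicate 2 (0.811). XBP1, the factor of the unfolded protein response, had 2 UMIs in all gated cells.

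Of the enzymes of mucin glycosylation, 3 of the 14 that reached the minimum in both sets were higher and none lower, and GCNT3 was higher among those admitted by the gated sums alone. GCNT3, which branches mucin sugar chains, gave 2, 3 and 15 UMIs in gated cells and 12, 0 and 7 in LOC129339097 cells (log2 fold change 5.36 ± 0.82, edgeR adjusted p = 6.81e-09). The 3 were GALNT6, ST3GAL4 and GNE. Each of these lost its call without LG255 replicate 1 and without LG255 replicate 2, at edgeR adjusted p within 0.0621 to 0.969 for all named genes lost in this way, and GNE also without LG252 replicate 1.

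Genes of granule release had 3 of the 8 that reached the minimum in both sets higher, namely RAB27B, SYTL2 and RAB3D, which act in the docking or release of granules. RAB3D was at 3.23, 1.03 and 1.14 per 10000 in gated cells, against 0.868, 0.594 and 0.385 in LOC129339097 cells, higher in each library (1.36 ± 0.43, edgeR adjusted p = 0.0221). RAB27B was lost without LG255 replicate 1 (0.0879) or LG255 replicate 2 (0.0623), RAB3D likewise without either, and SYTL2 without LG252 replicate 1 (0.2002) or LG255 replicate 1 (0.271).

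Few genes of the general machinery of the endoplasmic reticulum and Golgi passed the test. Of 33 genes for the translocon and folding, 1 was higher and 1 lower (median log2 fold change 0.21, which is 0.61 above that of all genes), and of 27 for transport to the Golgi, SEC24D alone was higher (median 0.43, 0.83 above that of all genes). SEC24D was tested through the gated sums alone. HYOU1, a chaperone, was higher by 1.92 ± 0.57 (edgeR adjusted p = 0.0109), and the chaperone HSPA5 lower by a log2 fold change of -1.96 ± 0.55 (adjusted p = 0.00767). Neither stood when a library was left out: HYOU1 was lost without LG255 replicate 1 (0.201) or LG255 replicate 2 (0.529), and HSPA5 without any 1 of the 3 libraries (0.0740 to 0.220). SEC24D was lost without LG255 replicate 2. The shares called, 2 of 33 and 1 of 27, lie below the 10.3% of all genes.

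Genes of basal and stratified epithelium were lower. Of 7 basal genes 5 were lower and none higher, 4 of the 5 tested through the LOC129339097 sums alone and DST, a plakin of hemidesmosomes, through both. COL17A1, a collagen of hemidesmosomes, was at 0, 0 and 0.0265 per 10000 in gated cells, against 5.60, 1.93 and 1.24 in LOC129339097 cells, a clear separation in every library (log2 fold change -6.84 ± 0.81, edgeR adjusted p = 7.17e-15). TP63, the master factor of basal keratinocytes, gave 0, 1 and 1 UMIs in gated cells, against 479, 474 and 802 in LOC129339097 cells (-4.53 ± 0.78, adjusted p = 4.38e-07). The laminin gene LAMB3 had 0 UMIs in gated cells of all 3 libraries, against 240, 149 and 173, and its call was lost without LG255 replicate 1 or LG255 replicate 2.

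Desmosome genes of the pan-epithelial list were lower as well. PKP1 was at 0, 0.129 and 0.344 per 10000 in gated cells, against 1.81, 2.58 and 2.59 in LOC129339097 cells (-3.46 ± 0.55, edgeR adjusted p = 2.36e-08). DSP was at 1.03, 2.83 and 1.59 per 10000, against 5.49, 7.76 and 7.13 (-2.07 ± 0.46, adjusted p = 0.000247). The sets did not overlap for either gene. Against them CLDN3, a tight junction claudin of simple epithelium, was higher, at 1.42, 0.772 and 0.318 per 10000, against 0.093, 0.037 and 0.059 (3.35 ± 0.58, adjusted p = 6.94e-07). CLDN3 was tested through the gated sums alone and PKP1 through the LOC129339097 sums alone, so both calls are descriptions. In all, 2 of 13 pan-epithelial genes were higher and 3 lower. Of the 10 that reached the minimum in both sets, KRT18 was higher and DSP and JUP lower. KRT18 was uneven over the gated cells, and was high in LG255 cells led by LOC129343529, as given above. In pair-led cells with 10% or more of LOC129342885 it was at 1.66 and 1.15 per 10000 in replicates 1 and 2 of LG255. In the other pair-led cells it was at 3.88 and 2.62. The call for JUP was lost in DESeq2 and without LG252 replicate 1 (edgeR adjusted p = 0.124) or LG255 replicate 1 (0.300). The call for DSP stood in these settings. With no library block both were lost (edgeR adjusted p 0.142 for JUP and 0.0855 for DSP).

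Cornification genes had 1 of 5 higher and 2 lower, none of them among those that reached the minimum in both sets. TGM1, the transglutaminase that crosslinks the cornified envelope, gave 0, 0 and 2 UMIs in gated cells, against 468, 149 and 490 (-3.87 ± 0.85, edgeR adjusted p = 0.0002). Cycling genes had 4 of 18 lower and none higher, all 4 tested through the LOC129339097 sums alone, and the proliferation marker MKI67 gave 1 UMI in each of the 3 libraries, its call being lost without LG255 replicate 2 (0.127). The other 3, CENPF, CCNB1 and TOP2A, were lost without either LG255 library. LGALS1, a galectin, was among the strongest lower genes, at 0.776, 0.644 and 4.90 per 10000 in gated cells, against 101, 121 and 77.8 in LOC129339097 cells (-6.16 ± 0.67, adjusted p = 1.53e-17).

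Stress genes were called lower at a larger share than all genes, but most of the named calls were lost when a library was left out. Heat shock genes had 3 of 15 lower and none higher, and immediate early genes 2 of 26 higher and 4 lower, beside 6.98% lower and 3.36% higher among all genes. Of the heat shock calls, HSPA2 was lost without each library in turn and in DESeq2, and BAG3 without LG252 replicate 1 or LG255 replicate 2 and in DESeq2. Of the immediate early calls, IER3 was lost without each library, MYC without LG252 replicate 1 or LG255 replicate 1, and GADD45B without either LG255 library (edgeR adjusted p within 0.0617 to 0.969 for all named genes lost by leaving out a library). HSP90AB1, a cytosolic chaperone, was at 1.29, 2.32 and 2.51 per 10000 in gated cells of LG252 replicate 1, LG255 replicate 1 and LG255 replicate 2, against 9.22, 10.1 and 9.39 in LOC129339097 cells. It was lower in every library (log2 fold change -2.34 ± 0.47, edgeR adjusted p = 3.46e-05), and the call was lost without LG255 replicate 1 (0.0672). NR4A1, an orphan nuclear receptor induced early by many stimuli, was at 6.47, 2.70 and 1.88 per 10000, against 1.42, 0.485 and 0.329. It was higher in each library (2.27 ± 0.43, adjusted p = 7.48e-06), and this stood without each library and in DESeq2.

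Genes with locus numbers were among the highest calls, 2 of them neighbours of LOC129335408 on chromosome 9 and 2 on chromosome 15, away from the gate gene there. LOC129335409, next to LOC129335408 on chromosome 9, was at 101, 12.5 and 10.3 per 10000 in gated cells, against 0.991, 0.00287 and 0.0135 in LOC129339097 cells (log2 fold change 8.74 ± 0.65, edgeR adjusted p = 8.33e-37). The LOC129339097 set of LG252 replicate 1 holds 3 cells with 10 or more UMIs of the gate genes that failed the gate for its other limits, and without them LOC129335409 was at 0.498 per 10000 there, LOC129335395 at 3.37 instead of 6.44, and AGR2 at 0.143 instead of 0.495. LOC129335395 was at 384, 5.92 and 6.27 per 10000, so that it was high mainly in LG252 replicate 1 (7.73 ± 0.69). LOC129343454 was at 8.79, 139 and 221 per 10000, high in LG255 (6.91 ± 0.68), and LOC129343461, close to it on chromosome 15, at 6.34, 11.5 and 33.0 (6.68 ± 0.57). All 4 stood without each library and in DESeq2. LOC129335409 and LOC129335395 were tested through the gated sums alone, so their calls are descriptions. Both calls were lost with no library block (edgeR adjusted p 0.0844 and 0.230).

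**Figure D4:**
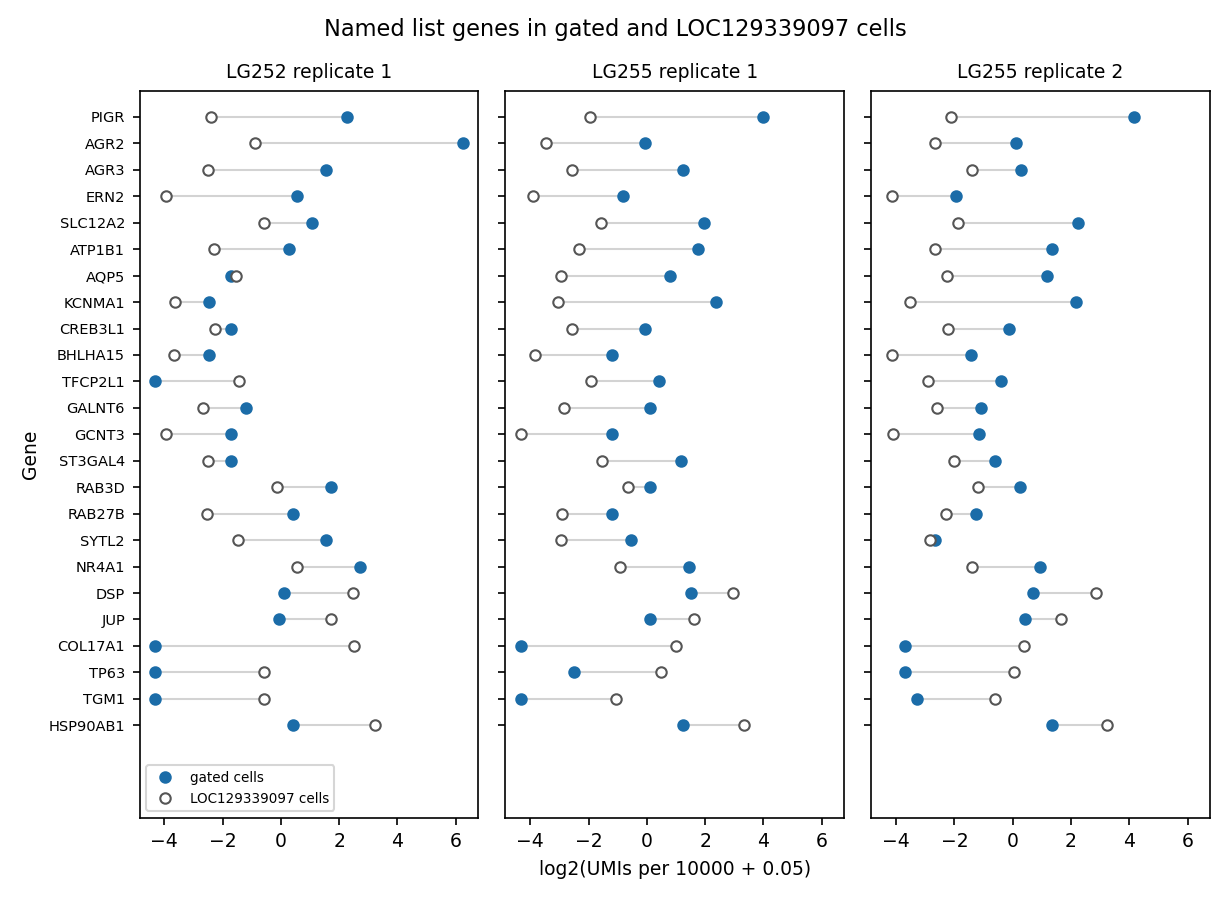
Panels are the 3 tested libraries, rows are genes named from the lists, and the horizontal axis is log2(UMIs per 10000 + 0.05); filled points are gated cells and open points LOC129339097 cells. PIGR, AGR2, SLC12A2 and ATP1B1 lie to the right in gated cells of every panel, COL17A1, TP63 and TGM1 to the left, and AQP5 and TFCP2L1 go the other way in LG252 replicate 1, where they are at 0.259 and 0 per 10000 in gated cells.

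Cells with 3 or more UMIs of MUC22, TGM4 and MALL (283 cells outside the gate) were the other set that the rule's limits name. Against them 203 of 2633 genes passed the same edgeR test (7.71%), 94 higher (3.57%) and 109 lower (4.14%), with a median log2 fold change of -0.05 over all genes. The gated libraries are those of the previous comparison, so the comparisons share them and are given side by side.

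Mucous products and transport genes had 3 of 4 and 3 of 5 tested genes called higher. All of these 6 genes were tested through the gated sums alone, so the counts are a description. Over all genes, 868 reached the minimum (0.381 per 10000) in both sets, of which 11 were called higher and 22 lower. PIGR was at 4.78, 15.8 and 17.9 per 10000 in gated cells, against 0.363, 0.887 and 0.303 in MUC22, TGM4 and MALL cells of the same libraries, with no overlap (5.10 ± 0.69, edgeR adjusted p = 0.000704). ANO1 was at 1.68, 2.96 and 2.54 per 10000, against 0.387, 0.546 and 0.265 (3.18 ± 0.54, adjusted p = 0.00255). CCL28 gave 12, 28 and 197 UMIs, against 2, 0 and 0 (adjusted p = 0.000272). ELAPOR1, a transmembrane protein, gave 4, 7 and 17 UMIs, against 1 in each library (5.18 ± 0.71, edgeR adjusted p = 0.000756). CCL28 and ELAPOR1 were likewise tested through the gated sums alone. AGR3 and RAB3D also passed, although AGR3 went the other way in LG255 replicate 2, at 1.16 per 10000 in gated cells and 1.53 in the MUC22, TGM4 and MALL cells. Both were lost without LG255 replicate 1, and RAB3D without LG255 replicate 2, at edgeR adjusted p within 0.0504 to 0.238 for all named genes lost in this way.

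Cornification genes had 4 of 4 lower, all tested through the MUC22, TGM4 and MALL cells alone. CSTA, a protease inhibitor of the cornified envelope that is in no list here, was at 0, 0.257 and 0.238 per 10000 in gated cells, against 4.04, 8.12 and 11.4 (-4.76 ± 0.61, edgeR adjusted p = 0.000661). CSTA too was tested through the MUC22, TGM4 and MALL cells alone, where it is high, so its call is a description. TGM1 was at 0, 0 and 0.0529 per 10000, against 1.79, 1.50 and 1.89 (-4.79 ± 0.79, adjusted p = 0.00227), and SCEL at 0.259, 0 and 0.265, against 1.45, 2.18 and 2.86 (adjusted p = 0.0117). The envelope precursors PPL and EVPL were lower too, PPL being lost without LG255 replicate 2 and EVPL without either LG255 library. No gene of the translocon (26 tested), Golgi transport (16 tested), secretory factor (4 tested) or glycosylation (6 tested) list passed in this comparison.

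Within the gated cells, LG252 replicate 1 was set against both LG255 libraries. Here the lone LG252 library is assumed to vary like those of LG255, and the comparison sets cells led by LOC129325114 and LOC129343529 beside mostly pair-led cells, so leading gene, animal and digestion cannot be told apart. Of 1055 genes tested with edgeR, 150 (14.2%) passed, 75 (7.11%) higher and 75 (7.11%) lower in LG252, and DESeq2 called 59. Of the 1055 genes, 416 reached the minimum (1.29 per 10000) in the LG252 library and in at least 1 LG255 library, and of those 10 were called higher and 2 lower.

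Transcripts of the pair-led cells were lower in LG252. KCNMA1 was at 0.129 per 10000 in gated cells of LG252 replicate 1, against 5.15 and 4.42 in replicates 1 and 2 of LG255 (log2 fold change -5.96 ± 1.39, edgeR adjusted p = 0.00036). LOC129343486 gave 0 UMIs in LG252 replicate 1, against 380 and 3949 in LG255. PIGR was at 4.78 per 10000, against 15.8 and 17.9, and did not pass (-2.72 ± 1.07, adjusted p = 0.0716). Of the transport genes, KCNMA1 and AQP5 were lower in LG252, and AQP5 was not called in DESeq2. Both were tested through the LG255 libraries alone, where they are high, and so had to differ.

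Transcripts of the cells led by LOC129325114 and LOC129343529 were higher in LG252. AGR2 was at 75.1 per 10000 in LG252 replicate 1, against 0.901 and 1.03 in LG255 (5.31 ± 0.99, edgeR adjusted p = 5.85e-06). BPIFB2 gave 82 UMIs, against 0 in each LG255 library, LOC129335996 684 against 0 and LOC129328854 688 against 0. For these 3 genes no fold is given, since LG255 is at 0. AGR2 and these 3 genes were tested through the LG252 library alone, where they are high, and so had to differ.

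Of the heat shock genes that reached the minimum in both animals, 3 of 4 were higher in LG252 and none lower, namely HSPB6, HSPA2 and HSPA8. Another 3 of 4 tested through the LG252 library alone were higher, DNAJA4 among them. DNAJA4, a co-chaperone, gave 73 UMIs in LG252 replicate 1, against 0 and 1 in LG255 (edgeR adjusted p = 1.29e-09). HSPB6, a small heat shock protein, was at 42.8 per 10000, against 2.96 and 1.14 (3.65 ± 0.88, adjusted p = 0.000708), and HSPA2 at 47.7, against 3.35 and 1.22 (3.66 ± 0.89, adjusted p = 0.000728). JUND, of the immediate early list, was at 9.70 per 10000, against 0.644 and 0.132 (log2 fold change 4.18 ± 0.87). It was tested through the LG252 library alone. Of 18 immediate early genes tested, 12 lay above 0, with a median log2 fold change of 0.18, beside 0.06 for all genes. FOS went the other way (-1.21). Of the heat shock genes named here, HSPA8 was not called in DESeq2, while HSPB6, HSPA2 and DNAJA4 were. The split in heat shock genes stood outside the gate too. The summed heat shock list was at 244 and 183 per 10000 UMIs in LOC129339097 cells of replicates 1 and 2 of LG252. In those of LG255 it was at 21.9 and 22.0. In gated cells it was at 106 and 149 in the LG252 groups led by LOC129325114 and LOC129343529. The LG255 cells led by LOC129343529 had 34.5 and 34.7, and the pair-led cells 6.79 and 4.55.

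Cells rich in LOC129342885 were not limited to the gate. Of 8531 cells, 112 had 10% or more of their UMIs from it, 22 and 31 in replicates 1 and 2 of LG252 and 24 and 35 in those of LG255. As shares of the cells of each library these were 0.506 and 1.40% in LG252 and 3.32 and 2.79% in LG255. Of the 112 cells, 30 were gated, and 82 were not. The gated ones were 0 and 1 in replicates 1 and 2 of LG252 and 9 and 20 in those of LG255. In rich cells its median share came to 62.9 and 58.1% for replicates 1 and 2 of LG252 and to 41.4 and 56.6% for those of LG255. None of 1383 cells with collagen counts was rich, although 20.7 to 74.97% of them by library held at least 1 UMI of the gene, at 0.625 to 4.02 per 10000.

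The rich cells outside the gate carried PIGR and CCL28 too. PIGR was at 5.03 and 9.95 per 10000 in replicates 1 and 2 of LG252 and 13.6 and 14.4 in those of LG255, and CCL28 at 4.82 and 6.76 in LG252 and 2.14 and 4.55 in LG255. LOC129343454 was at 60.5 and 150 per 10000 in LG252 and 106 and 171 in LG255. They held almost none of the gate gene LOC129335408, with 0 and 0 per 10000 in LG252 and 0.0824 and 0.657 in LG255, and LOC129331419 was at 0.689 and 8.51 in LG252, below its 56.6 and 74.99 in LG255. BPIFB2 showed the other order, at 4.82 and 6.55 per 10000 in LG252 and 0 in both LG255 libraries. These cells were chosen after their values were seen and by a gene that took most of their UMIs, so no test is given.

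**Figure D5:**
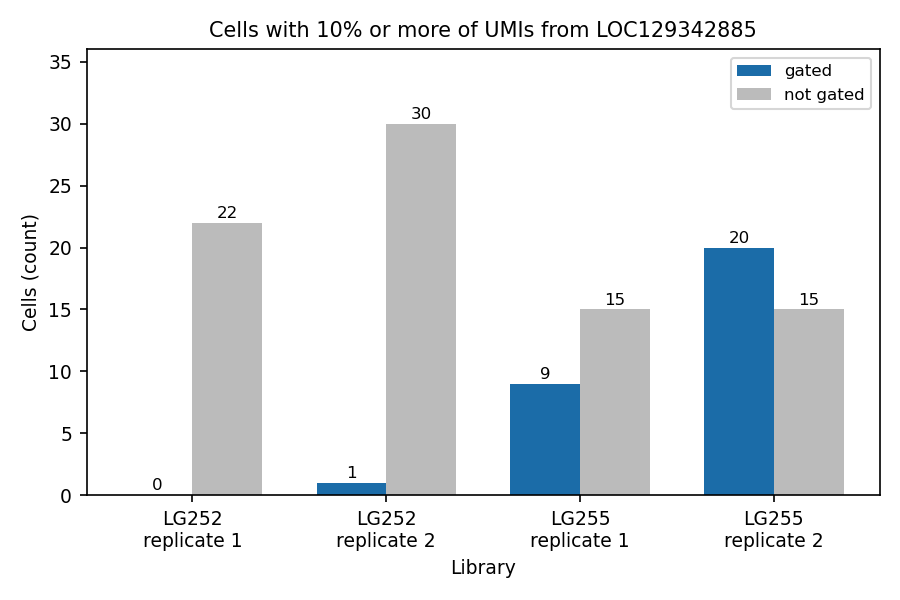
Bars count the cells of each library with 10% or more of their UMIs from LOC129342885, gated cells at the left of each pair and cells outside the gate at the right. LG252 has 0 and 1 gated cells of this kind beside 22 and 30 outside the gate, and LG255 has 9 and 20 beside 15 and 15. The bars are not scaled to the number of cells in each library.

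Leaving out the pair-led cells changed the share of gated cells most. Cells led by LOC129325114 or LOC129343529 alone made up 0.207% of cells in LG252 and 0.436% in LG255 (mean of 2 libraries each), a difference of -0.229 percentage points (exact permutation p = 0.667), while the pair-led cells alone gave -2.46 points. Most of the difference in share between the animals was in the pair-led cells, of which LG252 had 0 of 4345 and 0 of 2207 cells in replicates 1 and 2, counts that allow shares of up to 0.069 and 0.136%.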

How the data were processed

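RNA of single cells was measured in 4 libraries of adult gecko jaw tissue. The deposited values are raw UMI counts per gene and cell barcode, which the authors made with Cell Ranger 7.1.0, per the file headers; the submitters' processing notes list Cell Ranger 2.1.0. The assembly was MPM_Emac_v1.0, per the series' design text, and how cells were called, which annotation release served and whether reads in introns were counted are not given in the sources used here. Coordinates come from the RefSeq gene table of that assembly.

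Barcodes with at least 200 detected genes were kept, 8531 of 8612. The gate was applied to raw counts. Levels are UMIs per 10000 of the summed UMIs of a set of cells in a library, and a level moves with the share taken by abundant genes. Counts were summed per library and set, for sets of at least 10 cells, which left out LG252 replicate 2. The sums were tested with edgeR 4.0.16 (R 4.3.3, limma 3.58.1), using TMM scaling, filterByExpr, quasi-likelihood fits and Benjamini-Hochberg adjustment at 0.05, with library as a block where both sets came from each library. The tests were checked on simulated counts. Shares of cells were compared with an exact permutation test (scipy 1.17.1). Doublets stayed in; as an alternative, the top 0.8% per 1000 cells by Scrublet score (scanpy 1.11.5) were removed. Cell barcodes were compared between libraries: 30 were shared over all pairs, 1 of them with a gated cell.

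The gate genes, the comparison sets and the gene lists were chosen with earlier results of these data known. Named genes were the 10 higher and 10 lower with the smallest p among those called with a log2 fold change of at least 1 in the same direction in each library, plus up to 4 genes per list with the smallest p; the genes described by leading gene were chosen after their values were seen. A test of cells by leading gene had been planned and was not run, since no library held 10 cells of both groups. DESeq2 1.42.0 and other gates, scalings, filters and left-out libraries were tried as alternatives.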

Additional observations from a re-analysis of the deposited data

Results flagged for a closer look

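Cells with 10% or more of their UMIs from LOC129342885 were found outside the gate in every library, a signal in cells that the comparisons by gate do not use. There were 22 such cells in LG252 replicate 1, 30 in LG252 replicate 2, 15 in LG255 replicate 1 and 15 in LG255 replicate 2. Of these 82 cells, 69 held no UMI of the gate genes and 12 belonged to the LOC129339097 cells. No cell with collagen counts had such a share.

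The transport gene AQP5 and the transcription factor TFCP2L1 went opposite ways in the animals when gated cells were set against LOC129339097 cells. For TFCP2L1 the log2 ratio was -2.89 in LG252 replicate 1, and 2.35 and 2.50 in replicates 1 and 2 of LG255. For AQP5 the log2 ratio was -0.16 in LG252 replicate 1, and 3.73 and 3.44 in those of LG255. The LG252 values rest on 0 UMIs of TFCP2L1 and 2 UMIs of AQP5 in gated cells, and the difference between the animals was not tested.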

How the results depend on the processing

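No called fold change of a named gene and no difference in share changed sign under the alternatives run, but the balance of calls did. Against LOC129339097 cells, the 976 calls became 419 with DESeq2 (254 higher and 165 lower), 397 with a gate at 20 UMIs, 146 with cells thinned to 1000 UMIs and 271 with no library block. They were 275 without LG255 replicate 1, 396 without LG255 replicate 2 and 886 without LG252 replicate 1. Against the MUC22, TGM4 and MALL cells, the 203 calls became 472 with no filter on low counts, 30 with thinned cells and 106 with no library block, and ranged from 109 without LG255 replicate 2 over 185 without LG255 replicate 1 to 555 without LG252 replicate 1 (307 higher and 248 lower, beside 94 and 109 with all libraries). For LG252 against LG255, the 150 calls became 59 with DESeq2 and 59 with thinned cells. The difference in share moved from -2.69 to -0.229 percentage points with the cells led by LOC129325114 or LOC129343529 only. Without the cell rich in C1Q genes, an alternative chosen after seeing the data like the splits by leading gene and the scaling without LOC129342885, the calls were 971, 174 and 165. Without the LOC129339097 cells at 10 or more UMIs of the gate genes, also chosen afterwards, the first count was 977. The cause was not tested for any of these changes, although leaving out libraries and thinning cells leaves fewer data by construction. Of the named genes called, 33 of 62 against LOC129339097 cells and 30 of 36 against MUC22, TGM4 and MALL cells stood without each library and in DESeq2, and 26 of 37 between the animals stood in DESeq2. No paired analysis was possible because LG252 replicate 2 held 1 gated cell and the animals then shared fewer than 2 replicate numbers; leaving out a library there was likewise not run. Depth limits genes with few UMIs: the gated cells of the 3 libraries summed to far fewer UMIs than the sets they were compared with.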
